A study of Mus musculus with 13 samples.

Results

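The Nrf2 antioxidant response genes described here are 10 genes, found by symbol among the 48587 gene symbols of a count table of mouse RNA sequencing libraries. All 10 were in the table, and all 10 were among the 13246 genes that passed a filter on low counts. The libraries are macrophages of the sciatic nerve (4 libraries) and of the optic nerve (4 libraries) and microglia of the brain (5 libraries), all of strain C57BL/6J, and the series text gives these bulk libraries no injury or treatment. The sciatic nerve belongs to the peripheral nervous system and the optic nerve and brain to the central. The labels name no age, sex, animal or pool behind a library, so p-values measure the spread between libraries, which may be technical.

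Nrf2, the product of Nfe2l2, is a transcription factor that switches on genes against oxidants and reactive chemicals. At rest the adaptor protein Keap1 holds it and hands it to a ubiquitin ligase for destruction. Oxidants and electrophiles modify Keap1, and Nrf2 then builds up, pairs with small Maf proteins and binds the antioxidant response element of its targets. Because this control acts on the protein, the Nfe2l2 transcript is not itself a measure of Nrf2 activity. In macrophages the targets supply glutathione, thioredoxin and the enzymes that repair them, which limit damage from the oxidants that these cells make.

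Total counts ran from 10877914 to 23498764 per library. Summed microglia and border macrophage markers fitted the labels in direction. The summed level of 10 microglia genes was 3141 to 3413 CPM in sciatic nerve libraries, 27440 to 30250 CPM in optic nerve libraries and 32750 to 61150 CPM in brain libraries (CPM is counts scaled to a library size of 1000000 after TMM, a correction for composition). The sum over 8 border macrophage genes was 13270 to 15890, 345 to 756 and 147 to 275 CPM in the same order of tissues. In brain that sum was mostly Stab1 (176.8 ± 60.9 CPM), followed by Mrc1 (15.3 ± 6.87 CPM). Cd163, Cbr2, Folr2, Lyve1, Pf4 and F13a1 averaged between 0.00835 and 1.57 CPM there. Stab1 was lower in optic nerve libraries (60.4 ± 19.9 CPM) than in brain, against the direction of the sum. Of 8 neutrophil genes, S100a8, Ly6g, Mpo and Elane had 0 counts in all libraries, and Csf3r was the one gene tested. Csf3r averaged 29.6 ± 16.3 CPM in sciatic nerve libraries and 240.8 ± 65.3 CPM in optic nerve libraries, against 232.8 ± 50.4 CPM in brain libraries. The other 3 had at most 10 counts in a library. The column names of the brain libraries do not spell out the tissue, and these columns were taken as brain because they are the one set of 5. Brain libraries 1 and 2, numbered as in the table, stood apart from the other brain libraries. Their log2 CPM correlated with libraries 3 to 5 at 0.884 to 0.928 across genes, against 0.966 to 0.971 among libraries 3 to 5. Mitochondrial transcripts took 3.79% of the counts in library 1, while in libraries 2 to 5 they took between 0.410% and 0.868%.

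Srxn1, Txnrd1 and Prdx1, which work on the thioredoxin side of the response, were higher in macrophages of both nerves than in brain microglia, and so was Nfe2l2. The called folds of these 4 genes ran from 1.83 for Nfe2l2 in optic nerve to 51.8 for Srxn1 in optic nerve. Keap1 and Gclc were called lower in both nerves, but only their calls in sciatic nerve held in all 20 alternative fits. Slc7a11 was called higher in optic nerve than in brain, and Gclm and Gsr were not called in any of the 3 comparisons. The comparisons of each nerve with brain share the 5 brain libraries.

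**Figure D1:**
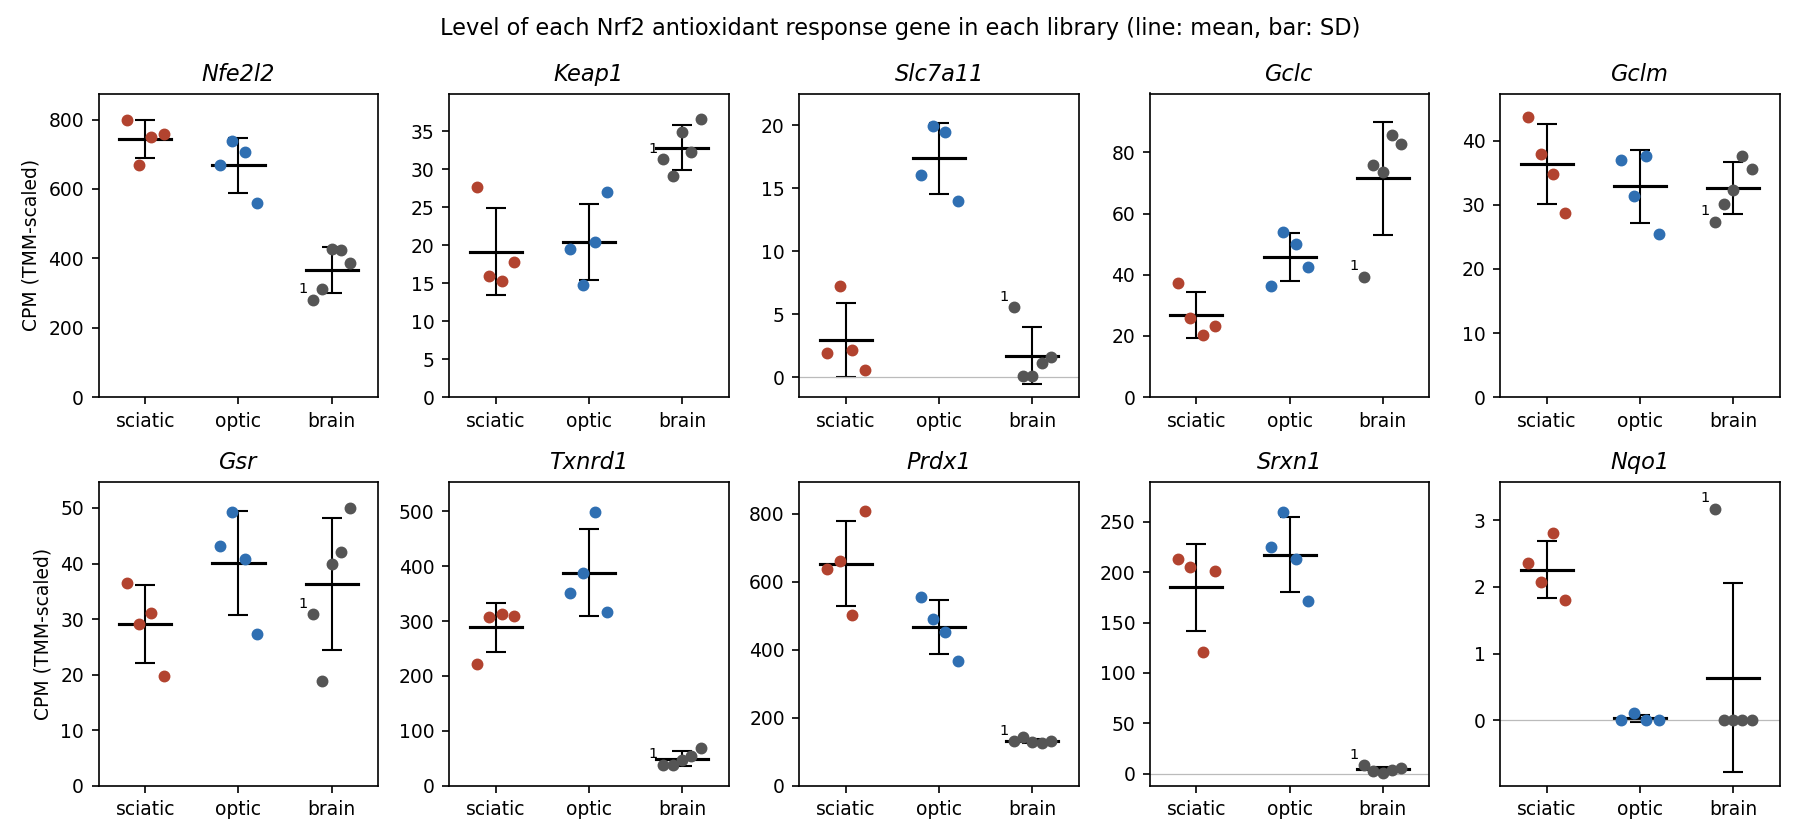
Level of each of the 10 genes in every library, in CPM on a linear axis, with sciatic nerve, optic nerve and brain libraries from left to right. Points are libraries, long lines are means and bars are SD (n = 4, 4 and 5), and 1 marks brain library 1. Txnrd1, Prdx1, Srxn1 and Nfe2l2 are higher in every nerve library than in every brain library, while brain library 1 alone holds the brain counts of Nqo1.

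In the comparison of sciatic nerve with brain, 4 of the 10 genes were called higher and 2 lower at an adjusted p under 0.05 (edgeR's quasi-likelihood test, Benjamini-Hochberg over 13246 genes). Of all genes tested, 24.1% were called higher and 24.3% lower, so 6 of 10 members stood beside 48.4% of all genes, which is near the background. Of the 10 genes, 4 were called higher by at least 2-fold and 1 lower, against 18% and 19.3% of all genes. Nfe2l2 was near that limit, with a log2 fold change of 1.02. It ran from 0.59, with scaling by library totals alone, to 1.08 over 20 alternative fits. Libraries did not overlap for 4 genes that were higher and 2 that were lower, against 22.1% and 19.2% of all genes, or 41.3% together. In the comparison of optic nerve with brain, 5 were higher and 2 lower, against 19.6% and 17.4% of all genes and 36.9% in either direction. By at least 2-fold, 4 were higher and 0 lower, against 12.6% and 12.5%. Libraries did not overlap for 5 that were higher and 1 that was lower, against 17.4% and 14.4% of all genes, or 31.8% together. Between the nerves 1 gene was higher and 1 lower in sciatic nerve, against 10.9% of all genes in each direction and 21.8% together. None of the 10 was called by at least 2-fold there, against 8.28% higher and 7.85% lower. Libraries did not overlap for Nqo1, higher in sciatic nerve, and for Txnrd1 and Slc7a11, lower there, against 15.5% and 14.4% of all genes, or 29.9% together. The median log2 fold change of the 10 genes was 0.93, 0.51 and -0.16 in these comparisons in turn, and 0.83, 0.87 and -0.23 without Nqo1. The median over all genes tested was -0.09, -0.08 and 0.00.

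**Figure D2:**
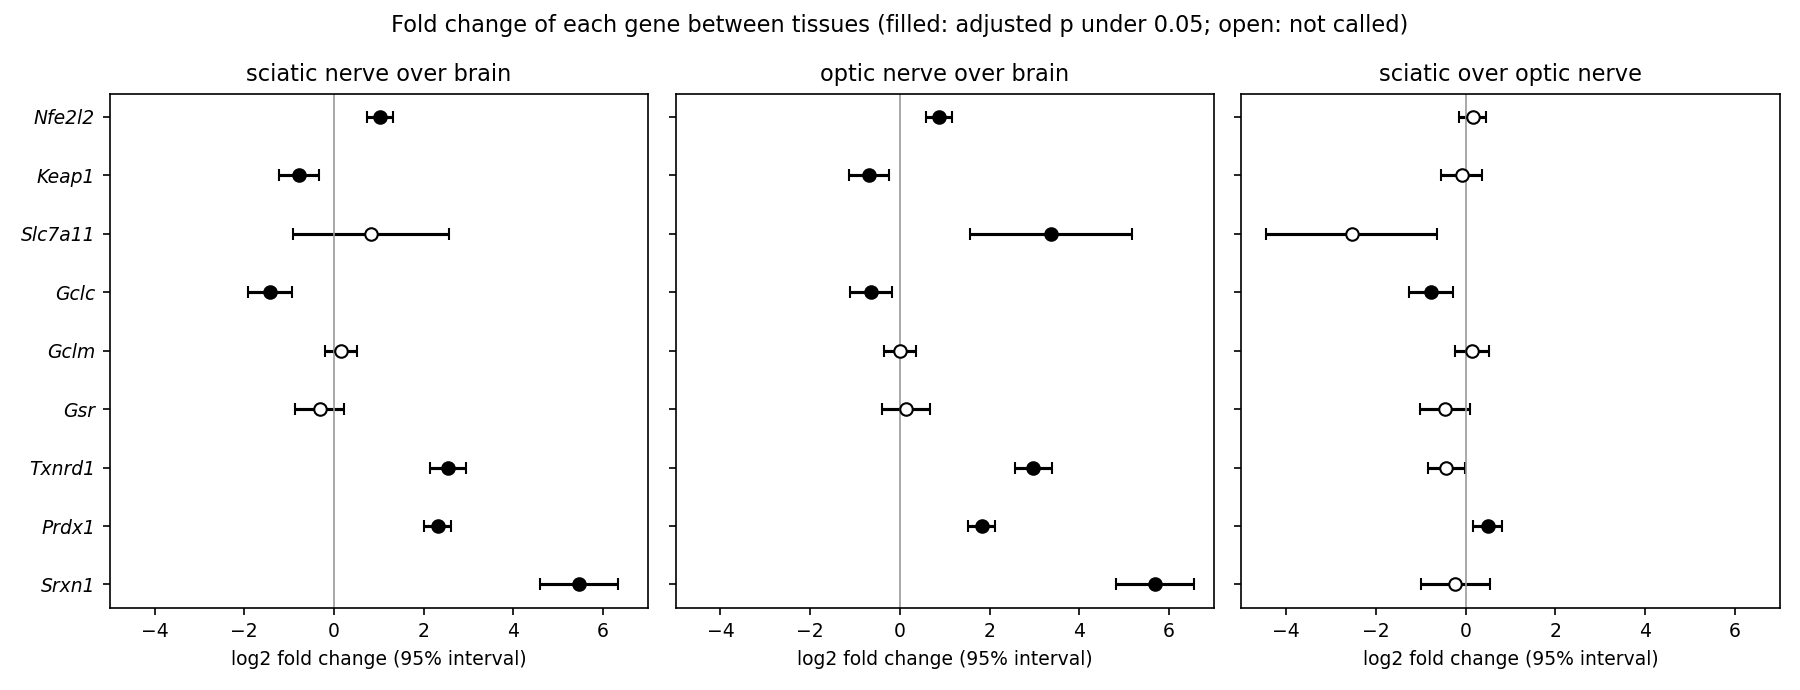
Fitted log2 fold change of 9 of the 10 genes in the 3 comparisons, with 95% intervals from the standard error of the fit. Filled points passed an adjusted p of 0.05 and open points did not. Nqo1 is left out because its fitted fold rests on groups with almost no counts. Srxn1 lies farthest from 0 in both comparisons with brain, at 5.46 and 5.69.

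The regulators Nfe2l2 and Keap1 were called in opposite directions. Nfe2l2 (chr2:75675513-75704641, minus strand, GRCm38) had 799.7, 669, 749 and 758 CPM in sciatic nerve libraries and 669, 739.7, 706 and 558 CPM in optic nerve libraries, against 281, 312, 426, 423 and 387 CPM in brain libraries. Every nerve library was above every brain library, and brain libraries 1 and 2 were the lowest. Its log2 fold change over microglia was 1.02 (SE 0.15, adjusted p = 4.91e-05) in sciatic macrophages and 0.87 (SE 0.15, adjusted p = 4.06e-04) in optic macrophages. The nerves were not told apart, with a log2 difference of 0.15 and a 95% interval from -0.15 to 0.46. In a bulk library, fewer cells of a type and less RNA per cell cannot be told apart for this or any gene below.

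Keap1 (chr9:21229730-21239361, minus strand), which encodes the sensor that holds Nrf2, had 27.6, 16.0, 15.3 and 17.7 CPM in sciatic macrophages and 19.5, 14.8, 20.4 and 27.0 CPM in optic macrophages, against 31.4, 29.1, 34.9, 32.3 and 36.5 CPM in microglia. The nerve and brain libraries did not overlap, but sciatic library 1 and optic library 4 came close to the brain range. Keap1 fell in sciatic macrophages (log2 fold change -0.78, SE 0.23, adjusted p = 0.0109) and in optic macrophages (-0.69, SE 0.23, adjusted p = 0.0274). The call in optic macrophages was lost in 7 of 20 alternatives (adjusted p from 0.00494 to 0.0989 over all of them), among them the fits without optic library 1, 2 or 3 and without brain library 3 or 5. An antisense gene, Gm16754, overlaps 510 bases of Keap1 exons. It had 144 counts over all libraries beside 6326 for Keap1. The sources used here do not say whether counting used the strand.

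Srxn1 had the largest called fold of the 10 genes in both comparisons with microglia. It encodes sulfiredoxin, which restores peroxiredoxins that have been inactivated by excess peroxide. Srxn1 (chr2:152105516-152111376, plus strand) had 213, 205, 121 and 201 CPM in sciatic macrophages and 225, 260.0, 213 and 171 CPM in optic macrophages, against 8.54, 2.42, 1.17, 3.56 and 5.72 CPM in microglia. The lowest nerve library, sciatic library 3, was still far above the highest brain library, which was library 1. The log2 fold change was 5.46 (SE 0.44, adjusted p = 9.22e-08) in sciatic macrophages and 5.69 (SE 0.44, adjusted p = 1.40e-07) in optic macrophages, or 44.1-fold and 51.8-fold. Of all genes tested, 4.57% had a larger log2 fold change in sciatic macrophages and 2.16% in optic macrophages.

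Prdx1 encodes peroxiredoxin 1, the abundant peroxidase that sulfiredoxin repairs. Prdx1 (chr4:116685544-116700822, plus strand) had 639, 663, 503 and 809 CPM in sciatic macrophages and 557, 491, 451 and 367 CPM in optic macrophages, against 131, 142, 128, 124 and 131 CPM in microglia. Brain libraries were even, with a coefficient of variation of 4.98%, and lay below all nerve libraries. Prdx1 rose in sciatic macrophages (log2 fold change 2.31, SE 0.16, adjusted p = 1.21e-08) and in optic macrophages (1.83, SE 0.15, adjusted p = 3.20e-07). Sciatic macrophages were also called above optic macrophages (0.49, SE 0.16, adjusted p = 0.0419), but those libraries overlap and 13 of 20 alternatives lost that call (adjusted p from 0.00958 to 0.184), including 9 that left out a single library. The processed pseudogenes Gm21399 and Gm7204 match Prdx1 at 98.3% and 97.5% over 597 bases. They had 248 and 67 counts, beside 87886 for Prdx1.

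Txnrd1 encodes cytosolic thioredoxin reductase, which recharges thioredoxin with electrons from NADPH. Txnrd1 (chr10:82833951-82897712, plus strand) had 222, 308, 313 and 309.9 CPM in sciatic macrophages and 351, 387, 499 and 317 CPM in optic macrophages, against 38.5, 36.9, 47.6, 53.7 and 69.5 CPM in microglia. It rose in sciatic macrophages (log2 fold change 2.55, SE 0.21, adjusted p = 9.39e-08) and in optic macrophages (2.98, SE 0.21, adjusted p = 4.33e-08). All 4 optic nerve libraries were above all 4 sciatic nerve libraries, yet the difference was not called (log2 -0.43, 95% interval -0.84 to -0.02, adjusted p = 0.170). Of all genes, 14.4% had sciatic nerve libraries wholly below optic nerve libraries.

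Immediate early and stress genes were also higher in both nerves than in brain. All 15 genes of a list that holds Fos, Jun, Egr1, Atf3 and Ier2 were called higher in sciatic macrophages and in optic macrophages than in microglia. Their summed level was 28690 to 33990 CPM in sciatic macrophages and 14140 to 18150 CPM in optic macrophages, against 496 to 687 CPM in microglia. Between the nerves that sum was thus higher in sciatic macrophages. There 6 of the 15 genes were called higher and 0 lower, beside 10.9% of all genes each way. The other 9 were not called, among them Ier2, at 685 ± 76.6 CPM in sciatic and 764 ± 155 CPM in optic macrophages. Srxn1 and Txnrd1 had their higher means in optic macrophages and were not called between the nerves, while Prdx1 was called higher in sciatic macrophages. Of 8 fibroblast markers 6 were tested, and all 6 rose in sciatic macrophages and 2 in optic macrophages, with a sum of 197 to 412 CPM in sciatic macrophages and 12.5 to 41.3 CPM in optic macrophages, against 2.27 to 7.65 CPM in microglia. Of all genes, 24.1% were called higher in sciatic macrophages than in microglia and 19.6% in optic macrophages. Border macrophage markers also differed, as given above. The part of these markers in the results was not tested. The 3 genes most like Srxn1 over the 13 libraries were Ier2, which is also on the early list, Maff, a small Maf factor, and Actg1, a cytoplasmic actin (Pearson's r 0.986, 0.985 and 0.985 of log2 CPM). Actg1 was counted at low levels, at 3.81 ± 1.55 CPM in sciatic and 5.08 ± 1.21 CPM in optic macrophages, against 0.363 ± 0.232 CPM in microglia. The genes most like Nfe2l2 were Mdm2, a ubiquitin ligase of p53, Serp1 and Glipr2 (r 0.986, 0.982 and 0.981). The libraries fall into 3 tissues, and these values hold the differences between tissues as well as those within them.

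The upstream sequences of 8 of the 10 genes were matched in RefSeq (GRCm38.p6), which has 1 entry each but 3 for Txnrd1; Gclc and Gsr had no entry. The core of the antioxidant response element was searched as TGACNNNGC on both strands from 250 bases before to 50 after the annotated start. It was found in 5 of the 8 genes (Nfe2l2, Srxn1, Gclm, Prdx1 and 1 start of Txnrd1), against 12.4% of 32851 promoters and 14.0% of 27025 genes. The looser form TGANNNNGC was found in 7 of 8 genes, against 45.0% of genes. Nrf2 binds this element in its targets, so these shares are no test of a list of Nrf2 response genes. The AP-1 form TGANTCA, which Fos and Jun proteins bind, was found in Srxn1 and Prdx1, at 2 places in each, against 9.0% of genes. That form was chosen after promoter sequences of these genes had been seen, so its share is no test either. AP-1 and response element letters overlap in Prdx1 (GCTGAGTCA, from position -133) and, for the looser form, in Srxn1 (TGAGTCAGC, from -45), with positions counted from the start. A match describes the letters only, and binding was not measured.

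The 250 bases before the start are shown for the 3 thioredoxin-side genes that rose and for Gclm, which holds the core but was not called, so that they can be compared. They lie at chr2:152105274-152105523 for Srxn1, chr4:116685349-116685598 for Prdx1, chr10:82858956-82859205 for Txnrd1 and chr3:122245307-122245556 for Gclm, all on the plus strand of GRCm38.p6. Capitals mark TGACNNNGC or TGANTCA on either strand.
Srxn1: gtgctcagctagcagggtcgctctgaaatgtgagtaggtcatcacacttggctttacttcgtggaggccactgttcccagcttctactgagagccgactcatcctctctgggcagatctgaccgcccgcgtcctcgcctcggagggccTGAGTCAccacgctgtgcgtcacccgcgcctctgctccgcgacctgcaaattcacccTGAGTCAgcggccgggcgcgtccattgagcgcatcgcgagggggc
Prdx1: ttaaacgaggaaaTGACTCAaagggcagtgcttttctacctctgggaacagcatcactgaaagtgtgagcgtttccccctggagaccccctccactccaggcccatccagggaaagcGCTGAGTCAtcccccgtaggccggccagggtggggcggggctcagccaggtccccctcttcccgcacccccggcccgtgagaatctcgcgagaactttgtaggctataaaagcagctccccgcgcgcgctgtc
Txnrd1: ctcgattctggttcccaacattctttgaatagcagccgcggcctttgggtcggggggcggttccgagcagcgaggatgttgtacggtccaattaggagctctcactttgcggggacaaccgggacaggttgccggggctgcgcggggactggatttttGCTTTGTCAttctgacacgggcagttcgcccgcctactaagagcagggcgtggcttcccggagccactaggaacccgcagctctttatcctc
Gclm: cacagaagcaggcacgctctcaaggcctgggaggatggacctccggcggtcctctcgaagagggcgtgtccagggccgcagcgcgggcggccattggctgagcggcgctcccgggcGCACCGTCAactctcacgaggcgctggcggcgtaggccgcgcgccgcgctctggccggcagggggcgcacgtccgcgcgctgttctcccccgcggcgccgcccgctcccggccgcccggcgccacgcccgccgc
In these stretches Srxn1 carries 2 copies of TGAGTCA and its core match lies after the start, at position 29. Gclm and Txnrd1 carry the core without an AP-1 form.

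Glutathione is made from cysteine, which enters the cell as cystine, and the first step of synthesis is run by glutamate-cysteine ligase. Gclc encodes the catalytic subunit of that ligase. Gclc (chr9:77754535-77794485, plus strand) had 37.4, 26.0, 20.2 and 23.2 CPM in sciatic macrophages and 36.3, 54.0, 49.9 and 42.5 CPM in optic macrophages, against 39.4, 75.8, 73.6, 85.6 and 82.8 CPM in microglia. Sciatic nerve libraries were all below brain libraries, and brain library 1 fell within the optic nerve range. Gclc fell in sciatic macrophages (log2 fold change -1.42, SE 0.25, adjusted p = 2.60e-04), and all 20 alternatives kept that call. It was called lower in optic macrophages than in microglia (-0.65, SE 0.24, adjusted p = 0.0476) and in sciatic than in optic macrophages (-0.77, SE 0.25, adjusted p = 0.0406), but 12 and 9 of 20 alternatives lost these calls (adjusted p from 0.00473 to 0.149 and from 0.00799 to 0.118). Leaving out sciatic library 2 or 3, any optic library, or any brain library but library 1 ended the call against microglia. Leaving out sciatic library 2, 3 or 4, optic library 2, 3 or 4 or brain library 3 ended the call between the nerves.

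Gclm (chr3:122245557-122270732, plus strand) encodes the modifier subunit that makes the ligase more efficient. It averaged 36.3 ± 6.24 CPM in sciatic macrophages, 32.8 ± 5.65 CPM in optic macrophages and 32.6 ± 4.09 CPM in microglia (SD, n = 4, 4 and 5). The libraries overlapped, and no comparison was called. The 95% intervals of the log2 difference ran from -0.20 to 0.51 for sciatic macrophages over microglia, from -0.35 to 0.37 for optic macrophages over microglia and from -0.23 to 0.52 for sciatic over optic macrophages. Gsr (chr8:33652523-33698163, plus strand), the glutathione reductase, averaged 29.1 ± 6.96, 40.1 ± 9.31 and 36.3 ± 11.9 CPM in the same order of tissues. It was not called either, with intervals from -0.86 to 0.22, from -0.39 to 0.68 and from -1.03 to 0.10. With brain libraries 1 and 2 left out together, Gsr was called lower in sciatic macrophages than in microglia (log2 fold change -0.60, adjusted p = 0.0455), as it was with scaling by library totals alone (-0.75, adjusted p = 0.0277).

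Slc7a11 encodes the exchanger that brings in cystine. Slc7a11 (chr3:49892526-50443614, minus strand) had 1.90, 7.26, 2.16 and 0.600 CPM in sciatic macrophages and 16.1, 19.95, 19.5 and 14.0 CPM in optic macrophages, against 5.59, 0.107, 0.140, 1.14 and 1.63 CPM in microglia. Optic nerve libraries were above all others, while sciatic nerve and brain libraries overlapped and were uneven, with sciatic library 2 and brain library 1 highest. It rose in optic macrophages over microglia (log2 fold change 3.37, SE 0.92, adjusted p = 0.0106), and all 20 alternatives kept that call. In sciatic macrophages over microglia it was not called (0.83, 95% interval -0.92 to 2.57), and the sign turned without sciatic library 2 (-0.10, adjusted p = 0.938). The difference between sciatic and optic macrophages was not called (-2.54, SE 0.97, adjusted p = 0.0767), and was called in 6 of 20 alternatives (adjusted p from 0.00721 to 0.163), among them the fits without sciatic library 2 and without brain library 1 or 2.

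The longest annotated Slc7a11 transcript holds 373 bases that match alpha-tubulin transcripts, at 96.2% for Tuba1b. Tuba1a, at 96.0%, averaged 72.0 ± 7.76 CPM in sciatic macrophages and 172 ± 5.94 CPM in optic macrophages, against 119.8 ± 8.23 CPM in microglia. Tuba1b averaged 94.6 ± 18.7 and 87.8 ± 5.33 CPM in the nerves, against 66.3 ± 8.96 CPM in microglia. Tuba1c, at 95.4%, averaged 182 ± 34.8 CPM in sciatic macrophages and 117 ± 7.23 CPM in optic macrophages, against 5.58 ± 1.90 CPM in microglia. Tuba1a was thus highest in optic macrophages, as Slc7a11 was, and Tuba1b and Tuba1c were highest in sciatic macrophages by mean. The sources used here do not say how reads that fit several places were counted, and the part of such reads in the Slc7a11 counts was not tested. The genes most like Slc7a11 over the 13 libraries were S100b, A930007I19Rik and Vcp (Pearson's r 0.905, 0.899 and 0.874). S100b, a calcium-binding protein of glial cells, is on the Schwann cell marker list and averaged 0.638 ± 0.821 CPM in sciatic macrophages and 2.98 ± 1.08 CPM in optic macrophages, against 0.527 ± 0.851 CPM in microglia.

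Glial markers went both ways in optic macrophages, where Slc7a11 rose. The sum over 6 oligodendrocyte genes was 166 to 236 CPM in sciatic nerve libraries and 267 to 333 CPM in optic nerve libraries, against 123 to 178 CPM in brain libraries. Of these 6, Mobp (log2 fold change 3.55), Mbp (1.66) and Mag (1.13) were called higher in optic macrophages than in microglia, and 0 were lower. Of all genes, 19.6% were called higher in that comparison and 17.4% lower. Of 4 astrocyte genes tested, Gja1 (7.12) and Gfap (5.84) were higher and Aldoc (-2.98) and Slc1a3 (-1.37) lower. The sum over all 6 on that list was 21.98 to 89.99 CPM in sciatic nerve libraries and 80.0 to 104 CPM in optic nerve libraries, against 184 to 246 CPM in brain libraries. Of 4 Schwann cell genes tested, 0 were called in that comparison. The part of glial RNA in the Slc7a11 result was not tested.

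The bases before the Slc7a11 start, at chr3:50443614-50443863 on the minus strand of GRCm38.p6, are shown because the gene is also a known target of Atf4, the factor of the amino acid stress response. Capitals mark TGATGNAA, a form of the amino acid response element, which 4.0% of promoters hold on either strand.
Slc7a11: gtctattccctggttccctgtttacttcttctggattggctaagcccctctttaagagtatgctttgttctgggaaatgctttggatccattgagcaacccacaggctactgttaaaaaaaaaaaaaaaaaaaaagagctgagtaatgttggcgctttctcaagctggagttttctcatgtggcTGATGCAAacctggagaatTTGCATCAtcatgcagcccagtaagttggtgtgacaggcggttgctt
It occurs at 2 places here, in opposite directions, from positions -66 and -47, and in no other of the 8 genes. TGACNNNGC does not occur in the window searched around this start. The AP-1 and amino acid forms were chosen for the search after promoter sequences of these genes had been seen.

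Nqo1 (chr8:107388225-107403206, minus strand) encodes a quinone reductase and is a widely used read-out of Nrf2 in other tissues. It had almost no counts in optic macrophages or in 4 of the 5 brain libraries. Its level was 2.35, 2.08, 2.81 and 1.80 CPM in sciatic nerve libraries and 0, 0.108, 0 and 0 CPM in optic nerve libraries, against 3.17, 0, 0, 0 and 0 CPM in brain libraries. Brain library 1 held all 42 brain counts. No comparison was called (adjusted p = 0.336 for sciatic macrophages over microglia, 0.113 for optic macrophages over microglia and 0.0550 for sciatic over optic macrophages).

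The 132 counts of Nqo1 in sciatic macrophages and 2 in optic macrophages give a ratio of 82.5 per unit of depth, with a 95% counting interval from 22.4 to 688. That interval covers counting error only, since reads without molecular identifiers are not independent molecules. The other 4 brain libraries had 0 counts, which allows up to 0.0300 CPM over those libraries (3 counts). Over all 5 brain libraries the means were 2.26 ± 0.430 CPM in sciatic macrophages and 0.635 ± 1.42 CPM in microglia, with a fitted log2 fold change of 1.88 and a 95% interval from -1.19 to 4.95. Without brain library 1, the difference between sciatic macrophages and microglia was called (adjusted p = 2.86e-04). Between sciatic and optic macrophages, 8 of 20 alternatives made the call (adjusted p from 9.66e-04 to 0.130 over all), among them each fit that left out 1 brain library. Border macrophage markers in brain library 1 summed to 275 CPM, against 147 to 249 CPM in the other brain libraries, a sum made mostly of Stab1 as given above. The part of other cells in its Nqo1 count was not tested.

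Per length, the order of the genes differed between tissues. In CPM per kilobase of annotated exons, mean levels in sciatic macrophages ran from Prdx1 (215) and Nfe2l2 (196) through Srxn1 (65.6) and Txnrd1 (40.7) to Gsr (10.6), Gclc (7.09), Gclm (5.77), Keap1 (4.08), Nqo1 (1.46) and Slc7a11 (0.214). Optic nerve kept Nfe2l2 (176) and Prdx1 (153) at the top and had Slc7a11 at 1.25. In brain, Nfe2l2 (96.4) led, followed by Prdx1 (43.2) and Gclc (19.0), and Srxn1 (1.52) was below Gsr (13.2), Keap1 (6.998), Txnrd1 (6.95) and Gclm (5.18). These lengths take every annotated exon of a gene, which for Slc7a11 come to 13922 bases, and a gene whose cells use a shorter transcript is placed too low.

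**Figure D3:**
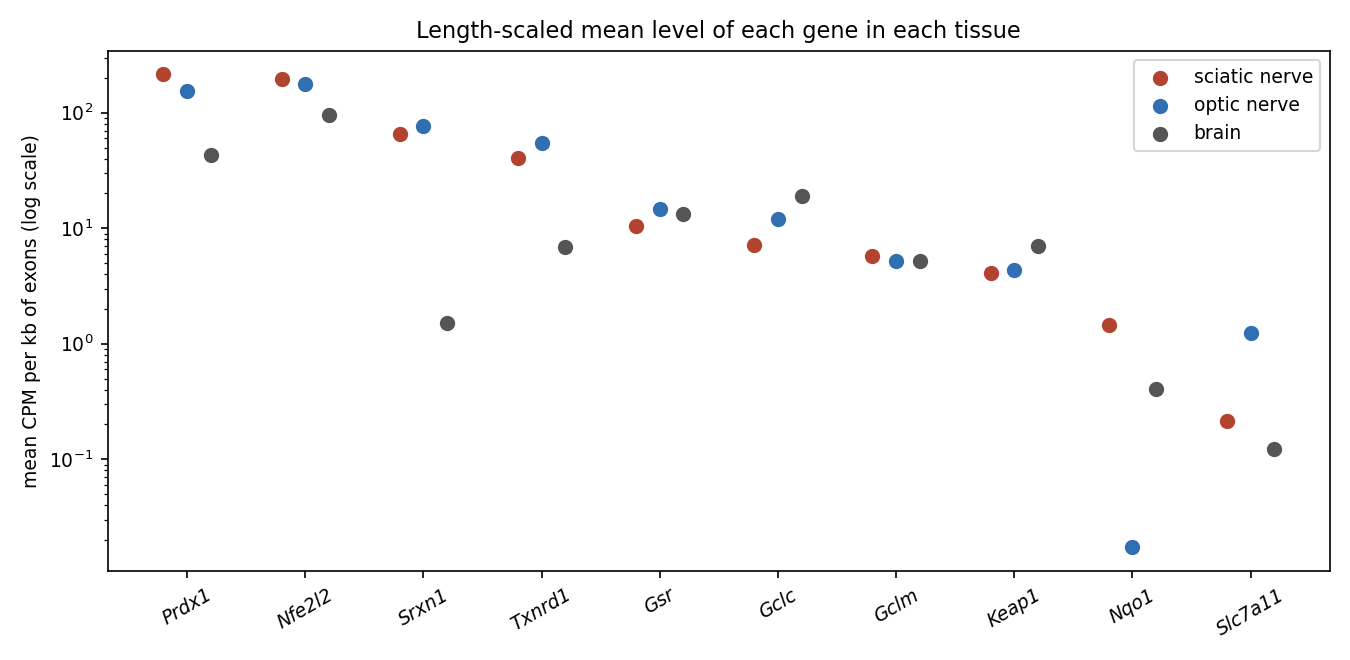
Mean level of each gene in CPM per kilobase of annotated exons, on a log axis, with sciatic nerve, optic nerve and brain side by side and genes ordered by the sciatic nerve level. Points are means over 4, 4 and 5 libraries. Srxn1 shows the widest gap between the nerves and brain among genes with counts in every library, at 65.6 and 77.1 in the nerves and 1.52 in brain.

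Partners and regulators of Nrf2 were described from a list of 11 genes, all tested. In sciatic macrophages 6 were called higher than in microglia and 0 lower, and in optic macrophages 6 higher and 1 lower, beside 24.1% and 19.6% of all genes called higher. The small Maf gene Maff, whose product pairs with Nrf2, averaged 148 ± 40.2 CPM in sciatic macrophages and 165 ± 43.9 CPM in optic macrophages, against 0.325 ± 0.298 CPM in microglia (log2 fold changes 8.99 and 9.15). Mafk rose with log2 fold changes of 3.72 and 4.07. Sqstm1, the p62 adaptor that draws Keap1 into autophagy, measured 2400 ± 346 CPM in sciatic macrophages and 2444 ± 455 CPM in optic macrophages, against 277 ± 47.0 CPM in microglia. Bach1, a repressor that competes for the same DNA element, rose too (1.58 and 0.86), and it was the one gene of this list called between the nerves (0.72, adjusted p = 0.0439). The median of the list was 0.53 and 0.54 over microglia. The early response, fibroblast, border macrophage and glial markers given above differed in the same comparisons, and their part in this list and the lists below was not tested.

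A glutathione list holds enzymes and also Abcc1 and Slc3a2, which encode transport proteins. Of its 15 genes tested, 10 were called higher in sciatic macrophages than in microglia and 0 lower, beside 24.1% and 24.3% of all genes. The list median was a log2 fold change of 0.92. Gpx3, a secreted glutathione peroxidase, averaged 107.5 ± 30.1 CPM in sciatic macrophages and 0.0336 ± 0.0351 CPM in microglia. Mgst1, a membrane glutathione transferase, averaged 87.1 ± 16.2 against 0.150 ± 0.336 CPM, and Gstm1 rose with a log2 fold change of 4.78. In optic macrophages 9 were higher and 1 lower than in microglia, beside 19.6% and 17.4% of all genes, with Gpx3 at 2.69 ± 1.10 CPM, Mgst1 at 5.47 ± 1.30 CPM and the glutaredoxin gene Glrx at 155 ± 42.5 CPM, against 19.5 ± 2.54 CPM for Glrx in microglia. Between the nerves 5 were higher and 1 lower in sciatic macrophages, beside 10.9% of all genes each way, and Gpx3 (5.32), Mgst1 (3.99) and Gstm1 (3.20) were farthest apart in log2.

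Of 14 thioredoxin and peroxiredoxin genes beside the 3 described, 7 were higher and 1 lower in sciatic macrophages than in microglia, and 7 higher and 2 lower in optic macrophages (medians 0.74 and 0.70). Of all genes 48.4% and 36.9% were called in these comparisons, so the 8 of 14 called in sciatic macrophages is near the background. Thioredoxin itself, Txn1, averaged 182 ± 41.1 CPM in sciatic macrophages and 47.3 ± 12.1 CPM in microglia (log2 fold change 1.95, adjusted p = 2.66e-06), and mitochondrial Txn2 averaged 185 ± 15.5 CPM in sciatic macrophages, against 51.1 ± 8.43 CPM in microglia. Prdx4, a peroxiredoxin of the endoplasmic reticulum, rose as well (1.43). In optic macrophages Txnip, an inhibitor of thioredoxin, fell to 176 ± 70.0 CPM, against 594 ± 157 CPM in microglia, and Sesn1, a p53-induced gene, fell to 56.1 ± 15.9 CPM, against 251 ± 87.0 CPM. Both were higher in sciatic than in optic macrophages (log2 fold changes 1.11 and 1.71). Sesn2, a stress-induced gene, went the other way between the nerves, at 8.95 ± 4.39 CPM in sciatic macrophages and 38.6 ± 8.78 CPM in optic macrophages (-2.11, adjusted p = 0.00416).

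Of 15 other known Nrf2 targets tested, 10 rose in sciatic macrophages and 8 in optic macrophages, each against microglia, and 0 fell (medians 1.13 and 0.58), beside 24.1% and 19.6% of all genes called higher. Hmox1, which breaks down haem, averaged 1162 ± 422 CPM in sciatic macrophages and 468 ± 90.9 CPM in optic macrophages, against 30.5 ± 10.6 CPM in microglia. The ferritin light chain Ftl1 rose with log2 fold changes of 3.11 and 2.07. Blvrb and Blvra, the biliverdin reductases, averaged 291 ± 32.1 and 185 ± 39.3 CPM in sciatic macrophages, against 35.8 ± 12.7 and 44.5 ± 10.6 CPM in microglia. In optic macrophages they measured 37.4 ± 3.74 and 57.8 ± 6.98 CPM and were not called against microglia. Between the nerves 7 were higher and 2 lower in sciatic macrophages, beside 10.9% of all genes each way, led by Blvrb (2.96) and Blvra (1.68).

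Sod2, the mitochondrial superoxide dismutase, averaged 309.7 ± 51.2 CPM in sciatic macrophages and 166 ± 38.1 CPM in optic macrophages, against 30.2 ± 2.43 CPM in microglia. Of the 3 tested genes of its list, 2 were called higher in sciatic macrophages than in microglia and 1 in optic macrophages, with catalase (Cat) called in sciatic macrophages (0.93, adjusted p = 0.00275), beside 24.1% and 19.6% of all genes called higher. Of 7 NADPH oxidase genes, 3 were higher and 1 lower in sciatic macrophages than in microglia, and 4 were higher in optic macrophages. The 4 of 7 called in each stand beside 48.4% and 36.9% of all genes, the first near the background. The catalytic subunit Cybb averaged 1575 ± 192 CPM in sciatic macrophages and 167 ± 29.9 CPM in optic macrophages, against 4.47 ± 4.21 CPM in microglia, while the organiser subunit Ncf1 was lower in sciatic macrophages (195 ± 43.1 CPM) than in optic macrophages (493 ± 38.8 CPM) and microglia (449.7 ± 44.2 CPM).

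Atf4 and its targets were listed because Slc7a11 is also a target of Atf4. Against microglia, 3 of the 10 genes tested rose and 4 fell in sciatic macrophages (median -0.67), and 4 rose and 1 fell in optic macrophages (median 0.82). Of all genes 24.1% were higher and 24.3% lower in sciatic macrophages, and 19.6% and 17.4% in optic macrophages. Between the nerves 0 were higher and 5 lower in sciatic macrophages (median -1.19), beside 10.9% of all genes each way, and 8 were lower with brain libraries 1 and 2 left out together. Ddit3, a stress transcription factor, averaged 47.5 ± 14.3 CPM in sciatic macrophages and 181 ± 33.5 CPM in optic macrophages (log2 fold change -1.93, adjusted p = 2.30e-04), against 19.3 ± 7.15 CPM in microglia. Phgdh, the first enzyme of serine synthesis, averaged 0.535 ± 0.469 CPM in sciatic macrophages and 28.6 ± 4.06 CPM in optic macrophages, against 35.8 ± 7.73 CPM in microglia. Atf4 itself measured 539 ± 95.2 CPM in sciatic macrophages and 775 ± 107 CPM in optic macrophages, against 101 ± 20.5 CPM in microglia, and was called in both comparisons with microglia (2.41 and 2.94). Atf3 is on this list and on the early response list. Sesn2 is also on the thioredoxin and peroxiredoxin list and so enters both counts. Chac1, which was not tested, is also on the glutathione list.

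**Figure D4:**
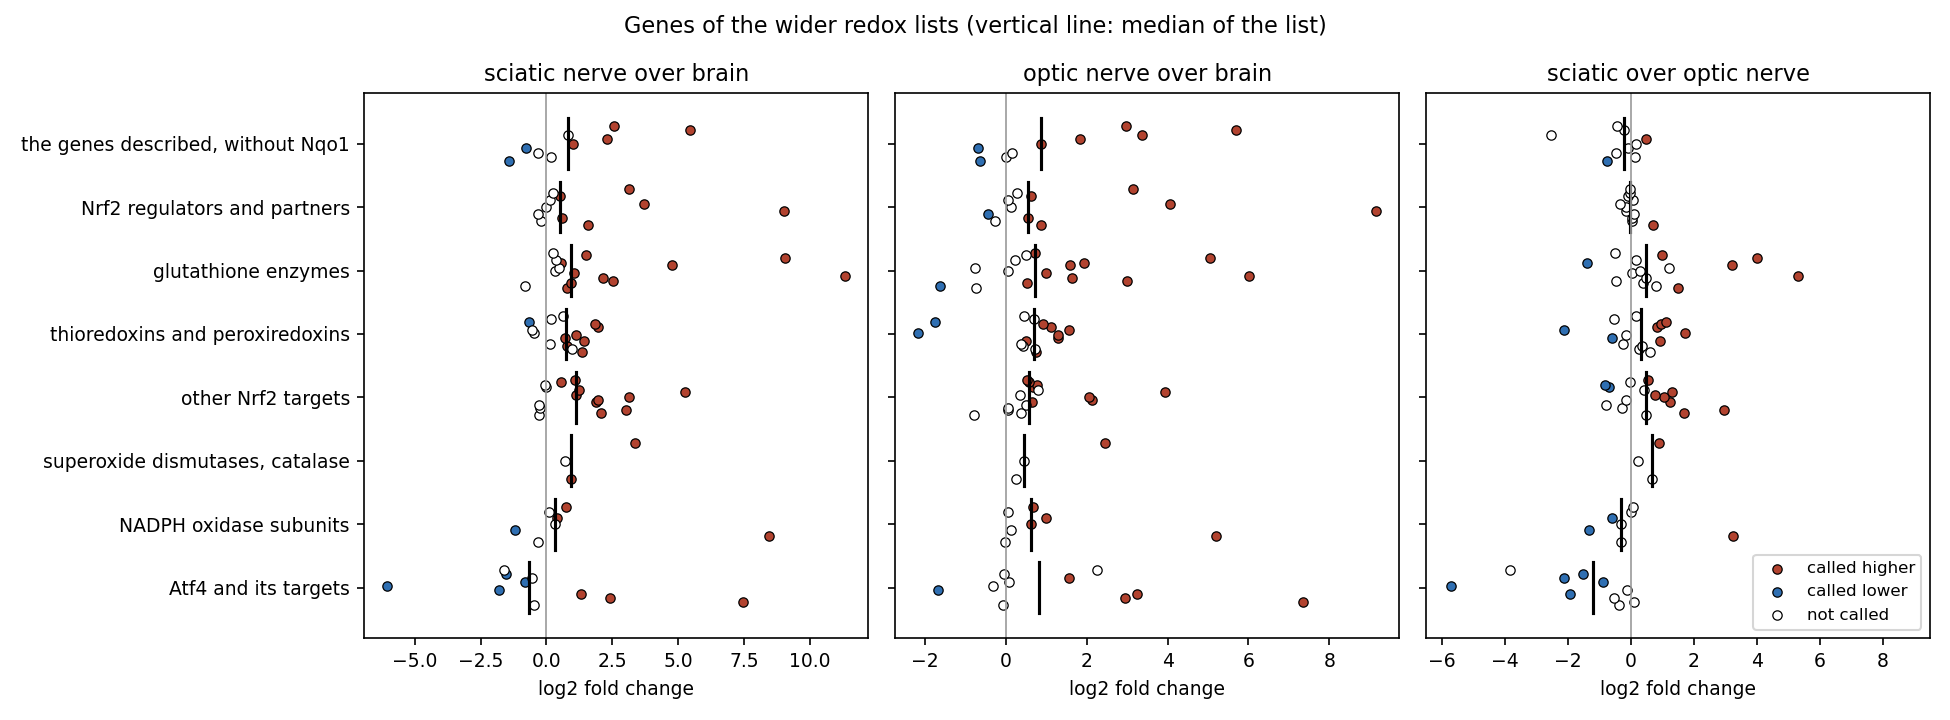
Fitted log2 fold change of every tested gene of the genes described (without Nqo1) and of 7 wider lists in the 3 comparisons. Each point is a gene, filled where called, and vertical lines are list medians. The list labelled glutathione enzymes also holds Abcc1 and Slc3a2, which encode transport proteins. In the comparisons with brain most called genes lie to the right of 0, while between the nerves the called Atf4 targets all lie to the left.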

How the data were processed

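RNA libraries of 13 samples were given as whole-number counts per gene, which the authors had mapped with STAR and counted with featureCounts 1.5.1 on mm10, per the submitters' processing notes. Strand, annotation and multi-mapping settings were not named there. Unused columns numbered 0. The work here used edgeR 4.0.16 under R 4.3.3: filterByExpr by tissue, TMM scaling, then a single quasi-likelihood model for the 3 tissues, F-tests per contrast and Benjamini-Hochberg adjustment over the 13246 genes kept, with calls under 0.05. Intervals are 95% normal intervals on the fitted coefficient, which can be narrower than the F-tests imply. Log2 CPM used a prior count of 2. The test was tried on simulated data. DESeq2 1.42.0 and other scalings, filters and sample sets gave 20 alternatives. Members, lists and tests were chosen with earlier results of these data known. All 10 members are named, besides 3 genes most like each of 3 members. Genes described from a wider list are among the 4 called with the largest change in a comparison, but not all such genes are named. A count of 0 limits a level at 3 counts. Gene models came from GENCODE M21 and promoters from RefSeq, both on GRCm38, the assembly of mm10. Copies had at least 95% identity over 100 bases.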

Additional observations from a re-analysis of the deposited data

Results flagged for a closer look

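In 30 sets of libraries (10 genes in 3 tissues), 6 held a library whose gap to the others passed Dixon's 95% limit. For normally spread values chance flags about 1 in 20 sets. That rate does not apply to Nqo1 in optic nerve and brain, where only 1 library had counts and the gap is the whole range. Brain library 1 accounts for 3 of the 6 flags. Its Nqo1 level was 3.17 CPM against 0 in the other brain libraries, its Slc7a11 level 5.59 CPM against 0.107 to 1.63 CPM, and its Gclc level 39.4 CPM against 73.6 to 85.6 CPM. This library had the lowest depth and the highest mitochondrial share of all. In sciatic nerve, Txnrd1 was low in library 1 (222 CPM against 308 to 313 CPM in the others) and Srxn1 was low in library 3 (121 CPM against 201 to 213 CPM). In optic nerve, Nqo1 was 0.108 CPM in library 2, from 2 counts, and 0 in the others.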

How the results depend on the processing

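Over 20 alternatives, Nfe2l2, Txnrd1, Srxn1 and Prdx1 stayed called higher in both nerves than in brain, Slc7a11 higher in optic nerve than in brain, and Keap1 and Gclc lower in sciatic nerve than in brain. The other calls moved, and the cause was not tested. DESeq2 called 2 members higher and 2 lower in sciatic than in optic nerve, where edgeR called 1 and 1. It also called 2 glutathione genes lower in optic nerve than in brain and 2 superoxide genes higher in sciatic than in optic nerve. Scaling by library totals alone, which moved the median log2 fold change of all genes to -0.54, -0.33 and -0.19 for sciatic over brain, optic over brain and sciatic over optic, called 4942 genes lower in sciatic nerve than in brain, against 3219 with TMM, and 0 members higher and 2 lower in sciatic than in optic nerve. Calls were then higher in 31.2%, 37% and 35.8% of cases, against 49.8%, 52.9% and 50% with TMM. Without a filter on low counts, 0 members were lower in optic nerve than in brain and 0 higher and 0 lower between the nerves. Fits of only the tissues compared gave 2 members lower in sciatic than in optic nerve, and left Nqo1 untested for optic nerve over brain.

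No pairing by replicate number was seen: deviations of same-numbered libraries correlated at -0.0776 to 0.0773, and 1 of 4 sciatic and 1 of 4 optic libraries correlated best with their own number. These values cannot show whether same-numbered libraries shared an animal, which the labels do not name. With the replicate block, 0 members were lower in optic nerve than in brain and 0 were higher and 0 lower between the nerves.

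With brain libraries 1 and 2 left out together, 2 members were higher and 2 lower in sciatic than in optic nerve. In that comparison 4 glutathione genes, 4 NADPH oxidase genes and 8 Atf4 genes were then lower and 2 superoxide genes higher. For sciatic nerve over brain 3 thioredoxin genes were lower. For optic nerve over brain 0 regulators, 2 glutathione genes and 0 Atf4 genes were lower and 2 superoxide genes higher. Leaving out 1 library at a time gave 0 to 2 members lower in optic nerve than in brain, and 0 to 2 higher and 0 to 2 lower between the nerves.

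Signs turned only for values that were not called. Gclm in optic nerve over brain was -0.003202 with DESeq2, -0.0027 with RLE scaling, -0.25 with library totals, -0.089 without brain libraries 1 and 2, -0.0007285 with only the 2 tissues and -0.057 to 0.12 with 1 library left out. Gsr there was -0.11 with totals, -0.12 without brain libraries 1 and 2 and -0.023 to 0.29 with 1 library left out. Nqo1 there was 2.33 without brain libraries 1 and 2, 2.38 without brain library 1 and -6.54 to 2.38 over all single libraries. Library totals gave -0.28 for Gclm in sciatic nerve over brain, and -0.031 for Nfe2l2 and -0.036 for Gclm in sciatic over optic nerve. With 1 library left out, Slc7a11 in sciatic nerve over brain ran from -0.10 to 1.97 and Keap1 in sciatic over optic nerve from -0.32 to 0.069. Nqo1 had 0 counts in 3 optic and 4 brain libraries, while brain library 1, which had the lowest depth, held 42. Slc7a11 held 9 to 105 counts in sciatic libraries and 237 to 371 in optic libraries, against 3 to 74 in brain libraries.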
